A study of Mus musculus with 10 samples.

Results

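The 10 genes described here carry the liver's route from tryptophan to NAD, with the salvage enzyme that feeds the same pool: Tdo2, Afmid, Kmo, Kynu, Haao, Acmsd, Qprt, Nadsyn1, Nampt and Aadat. They were taken by gene symbol from a table of 15126 genes, and each of the 10 had a single gene identifier in it. The rule names them by their biochemical roles and uses no measured value, though they were chosen with earlier results of these data known. RNA was sequenced from 5 livers of db/db mice, which lack a working leptin receptor and become obese and diabetic. These mice were 10 weeks of age and had received a serotype 8 adeno-associated virus that encoded eGFP, a green fluorescent protein, by tail vein (AAV8-Control). The livers were taken 5 weeks after infection. The promoter in the vector is not given in the sources used here. Every value below is therefore a level in a db/db liver that carried a reporter virus, and no group is compared with another.

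The kynurenine pathway breaks down most dietary tryptophan, and the liver is its main site. Tdo2 opens the tryptophan ring, Afmid releases kynurenine, and Kmo, Kynu and Haao carry kynurenine on to an unstable semialdehyde. That semialdehyde is the branch point: left alone it closes into quinolinate, which Qprt turns into nicotinate mononucleotide on the way to NAD, whereas Acmsd removes a carboxyl group and sends the carbon to full oxidation. Nadsyn1 makes the final amidation to NAD, Nampt rebuilds NAD from nicotinamide, and Aadat drains kynurenine into kynurenic acid. NAD in turn carries electrons in fuel oxidation and is consumed by sirtuins and poly(ADP-ribose) polymerases.

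Depth was 19499795 to 35498596 reads on genes (median 20769191). Values are CPM, each gene's reads on a common scale relative to all reads counted on genes in that library. The weakest member had at least 361 reads in any library, which puts its counting error at no more than 5.26%. The labels differ on the material and the virus: some sample fields describe cultured primary hepatocytes and an adenovirus, whereas the source field says liver and the series design and the study's methods give liver and AAV8. The design and methods were followed here, and the libraries held transcripts of other liver cells. The 8 hepatocyte markers, Alb among them, summed to 103740 to 141140 CPM, 10 macrophage markers to 141 to 290 CPM, 6 endothelial markers to 98.1 to 194 CPM and 6 stellate and fibroblast markers to 227 to 307 CPM. Cholangiocyte markers summed to 33.5 to 53.9 CPM and neutrophil markers to 1.16 to 2.65 CPM. T and NK cell markers summed to 0.338 to 2.31 CPM and B cell markers to 0.583 to 2.07 CPM, with 1 gene of each list at 0 in at least 1 library.

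All 10 members were well expressed. Each had a mean of at least 1 CPM, and each lay above the median level of the 11036 genes that passed this minimum and had an annotated exon length, 3.24 CPM per kb of exon. Together they summed to 2605 CPM in the lowest liver and 3352 CPM in the highest, and Tdo2 alone made up 44.3% of the summed mean. The spread between livers differed among them, from a coefficient of variation of 5.66% for Haao to 21.6% for Acmsd. Of the members, 4 varied less than the median gene, whose coefficient of variation was 10.6%. In bulk liver, less RNA per cell and fewer cells that express a gene cannot be told apart.

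**Figure D1:**
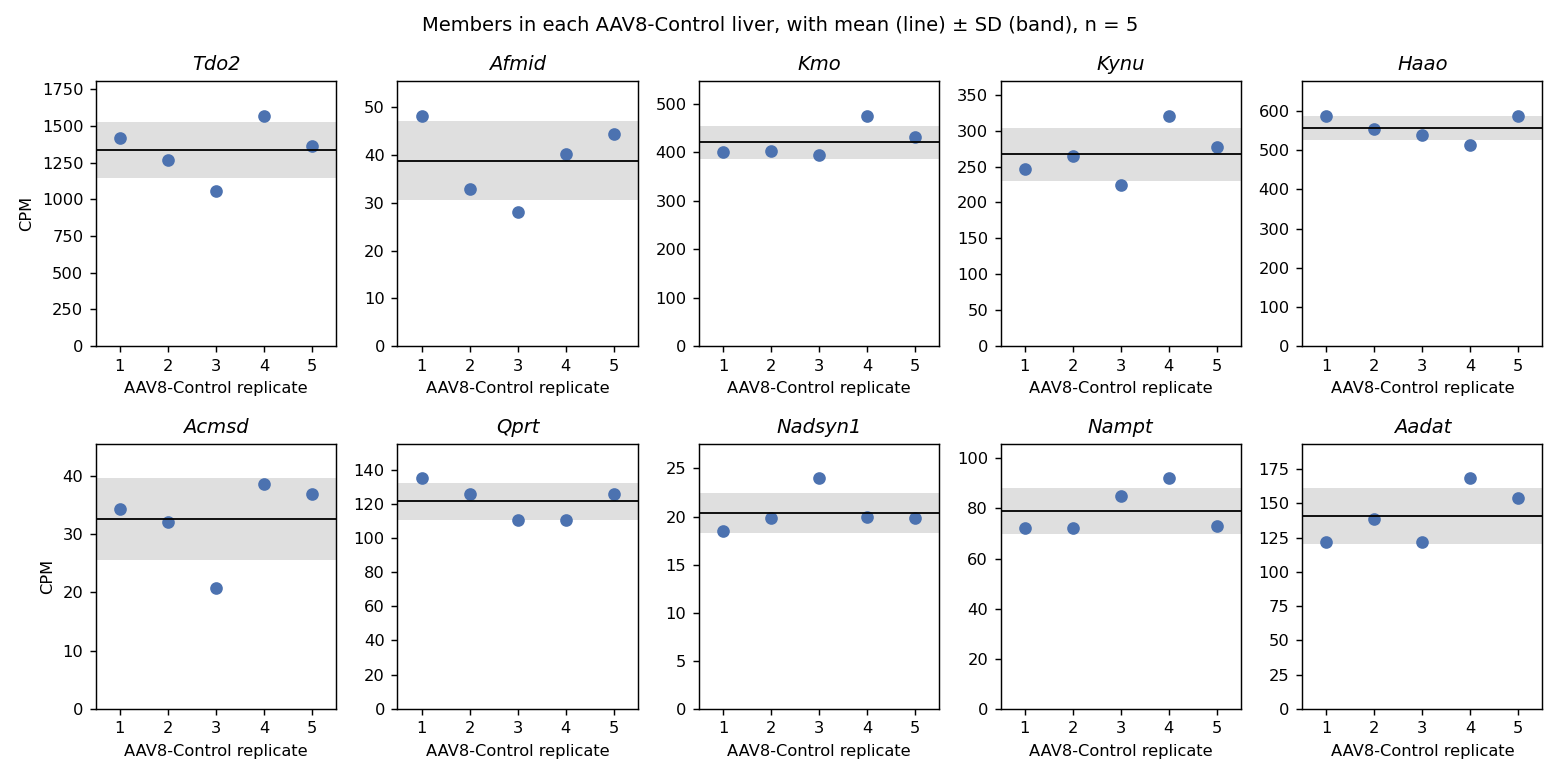
CPM of each member in every AAV8-Control liver (points, by replicate), with the mean as a line and ± SD as a band (n = 5); each vertical axis starts at 0. Replicate 3 is the lowest liver for 6 of the 10 members (5 once the libraries are rescaled, where replicate 1 is lowest for Kmo) and replicate 4 the highest for 6.

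Markers of liver cell types were uneven across the 5 livers. Of the 8 hepatocyte markers, 6 were highest in replicate 4. Replicate 3 was the lowest liver for 4 of them and replicate 1 for 3, or for 4 once the libraries are rescaled. Their sum, most of it Alb, was lowest in replicate 1. Cps1, the first enzyme of the urea cycle, was at 1702 CPM in replicate 3 and 2696 CPM in replicate 4, and Cyp2e1 at 4192 and 6020 CPM. Apoa1 alone of the 8 ran the other way, at 1278 CPM in replicate 3, its highest liver, and 769 CPM in replicate 4. Of the endothelial markers, 6 of 6 were lowest in replicate 4, where they summed to 98.1 CPM, and 4 were highest in replicate 1, where they summed to 194 CPM. Of the macrophage markers, 10 of 10 were highest in replicate 2, at a sum of 290 CPM, and 10 of 10 lowest in replicate 5, at 141 CPM. Of the 5 cholangiocyte markers, 4 were lowest in replicate 3, where they summed to 33.5 CPM, and 4 highest in replicate 2. Replicates 3 and 4 were also the pair furthest apart over all genes, with a chi-square per degree of freedom of 122 against 16.8 for the closest pair. That measure grows with depth, and replicates 3 and 4 were the deepest libraries, at 35498596 and 27435041 reads. The closest pair, replicates 2 and 5, had 20769191 and 20690171 reads. The part of the differences in markers and over all genes in the members' order of livers was not tested.

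Tdo2, tryptophan dioxygenase, is the entry enzyme of the hepatocyte and responds to glucocorticoids and to tryptophan. Its gene (ENSMUSG00000028011) is on the reverse strand at chr3:81957090-81976202 (GRCm38, GENCODE M21, as for the genes that follow). The livers held 1419, 1266, 1058, 1571 and 1362 CPM, a mean of 1335 ± 190 CPM (SD, n = 5). Replicate 4 was the highest and replicate 3 the lowest, and they differed 1.49-fold. Its level per kb was above that of 98.8% of the genes that passed the minimum.

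Afmid, the formamidase that follows, is on the forward strand at chr11:117825924-117839908. It was uneven, at 48.3, 33.0, 28.0, 40.2 and 44.4 CPM. The highest liver, replicate 1, stood 1.73-fold above the lowest, replicate 3. Afmid varied more between livers than 84.8% of genes. Of its exonic bases, 44.3% are shared in the annotation with Gm20708, a gene model on the same strand, and 2.35% with Tk1 on the opposite strand. If the annotation used for counting also held Gm20708, reads in the shared exons were ambiguous and the Afmid value counts the rest of the gene.

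Kmo, the kynurenine 3-monooxygenase of the outer mitochondrial membrane, is on the forward strand at chr1:175620381-175662116. It was at 400, 403, 394, 476 and 432 CPM. Replicates 1, 2 and 3 lay close together, and which of them was lowest depended on the scaling; replicate 4 was the highest, 1.21-fold above the lowest. Kynu, the pyridoxal phosphate-dependent kynureninase (chr2:43555329-43682715, forward strand), was at 247, 265, 224, 321 and 278 CPM. Its extremes fell in the same livers as those of Tdo2, replicate 3 lowest and replicate 4 highest, with a 1.43-fold range.

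Haao, the dioxygenase that makes the branch-point semialdehyde, is on the reverse strand at chr17:83831156-83847963. It was at 588, 555, 540, 515 and 587 CPM, a mean of 557 ± 31.5 CPM. Replicate 4, the highest liver for 6 members, was here the lowest. Replicates 1 and 5 were the highest and nearly equal, 1.14-fold above replicate 4, and replicate 5 alone was the highest once the libraries were rescaled. Haao was the steadiest member, and 14.7% of genes varied less.

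Beyond the semialdehyde stand the 2 arms of the branch, Acmsd toward oxidation and Qprt toward NAD. Acmsd (ENSMUSG00000026348, chr1:127729413-127767978, forward strand) was at 34.4, 32.0, 20.8, 38.7 and 37.0 CPM, a mean of 32.6 ± 7.04 CPM. Replicate 3 stood below the other 4, and the highest liver, replicate 4, was 1.86-fold above it, the widest range among the members. An antisense gene, 2900009J06Rik, shares 3.32% of the exonic bases of Acmsd, and no strand setting for the counting was given in the sources used here.

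Qprt, the phosphoribosyltransferase of the NAD arm (chr7:127107114-127122226, reverse strand), was at 135, 126, 110, 111 and 126 CPM. Replicates 3 and 4 were the lowest, side by side, and replicate 1 was the highest, 1.22-fold above replicate 3. The ratio of Acmsd to Qprt, each scaled to the length of its exons, was 0.238, 0.238, 0.176, 0.326 and 0.274, a mean of 0.251 ± 0.0551 (SD, n = 5). In every liver the transcript of the NAD arm was thus the more abundant. The ratio is of transcripts and not of enzyme activity.

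Nadsyn1, the NAD synthetase, is on the reverse strand at chr7:143795584-143822849. It was at 18.5, 19.8, 24.0, 19.9 and 19.8 CPM. Replicate 3, the lowest liver for Tdo2, Kynu and Acmsd, was here the highest, and the other 4 lay between 18.5 and 19.9 CPM.

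Nampt, the rate-limiting enzyme of NAD salvage, is on the forward strand at chr12:32819545-32853349. Its levels were 72.4, 72.1, 85.0, 92.0 and 72.9 CPM. The livers fell into a lower set of 3 and a higher pair, replicates 3 and 4, which were the lowest livers for Qprt. With 5 livers no correlation was computed.

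Aadat, an aminotransferase that also degrades lysine, is on the forward strand at chr8:60505932-60545677. It was at 122, 138, 122, 168 and 154 CPM. Replicates 1 and 3 were the lowest and replicate 4 the highest, 1.38-fold above the lowest.

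Levels between genes were compared as CPM per kb of exon. The length counts the exons of all annotated transcripts of a gene, used in these livers or not, so each place in the order depends on it. The order ran from Tdo2 at 344 ± 49.0 through Haao at 119 ± 6.73, Kmo at 89.1 ± 7.18 and Aadat at 64.6 ± 9.38 (SD, n = 5). Qprt at 46.0 ± 4.05 and Kynu at 43.4 ± 5.93 followed, with overlapping livers. Nampt at 15.6 ± 1.81, Acmsd at 11.5 ± 2.49, Afmid at 10.95 ± 2.34 and Nadsyn1 at 6.17 ± 0.628 closed the order. The level of Tdo2 was 55.7 times that of Nadsyn1. Of the 9 pairs of neighbours, 7 did not overlap between livers, and the 2 that did were Qprt with Kynu and Acmsd with Afmid. The place of Afmid depends on its length: over the 1973 exonic bases not shared with Gm20708 it would be at 19.6 ± 4.19 CPM per kb, above Nampt in 4 of 5 livers and above Acmsd in 5 of 5, with no overlap with Acmsd. Over all its exonic bases, as in the order given, Acmsd was above Afmid in 3 of 5 livers. Qprt was above Kynu in 4 of 5. Nampt was above Acmsd in each of the 5 livers, with 14.3 CPM per kb in its lowest liver against 13.7 in the highest for Acmsd, but their ranges overlapped once other scalings were used.

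**Figure D2:**
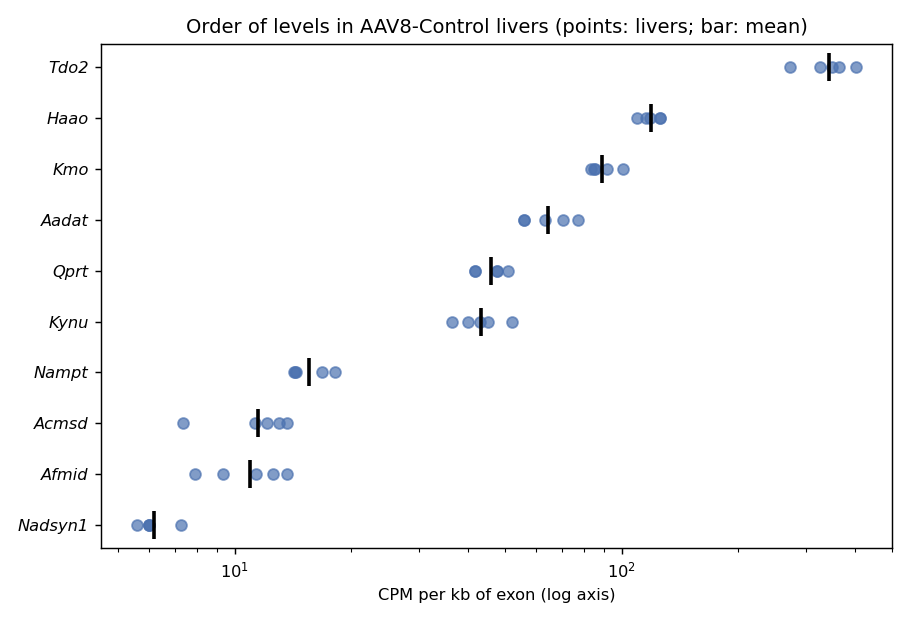
CPM per kb of exon (log axis) of the 10 members in order of their mean, with a point for each of the 5 AAV8-Control livers and a bar at the mean. Tdo2 is highest at 344 and Nadsyn1 lowest at 6.17.

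Around the members, the lists of tryptophan and NAD metabolism placed these levels among their neighbours, again per kb of exon. All 7 of the other kynurenine genes in the table passed the minimum. Gcdh, glutaryl-CoA dehydrogenase of the oxidation branch, was the highest at 248 ± 12.3 CPM per kb, and Aldh8a1, the semialdehyde dehydrogenase that acts on the Acmsd product, was at 106 ± 2.37, well above Acmsd itself. Dhtkd1, further down that branch, was at 8.06 ± 0.837. Ido2, a dioxygenase that can share the Tdo2 reaction, was at 28.9 ± 4.49. Ido1 was not analysed here. Among the other aminotransferases that can make kynurenic acid as Aadat does, Got2 was at 62.9 ± 3.97, within the range of Aadat, and Kyat1 and Kyat3 were at 19.6 ± 1.98 and 14.9 ± 2.62.

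Of the other NAD synthesis genes, 8 of 9 in the table passed the minimum, all but Nmnat2. Naprt, which starts NAD synthesis from nicotinic acid, was at 32.1 ± 2.25 CPM per kb, and Nmrk1 of the riboside route at 5.74 ± 1.06. Nmnat1, the nuclear adenylyltransferase that the routes share, was at 5.72 ± 0.642 and Nmnat3 at 1.46 ± 0.140. The NAD kinases Nadk and Nadk2 were at 73.9 ± 5.58 and 30.7 ± 2.18. Slc25a51, the carrier that brings NAD into mitochondria, was at 10.4 ± 1.04.

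Of the carriers of tryptophan and NAD precursors, 6 of 8 passed the minimum. Slc3a2, the heavy chain that brings amino acid exchangers to the membrane, was at 12.5 ± 0.213 CPM per kb with a coefficient of variation of 1.70%, the smallest of these 6, whose median was 25.1%. Slc22a7, an organic anion transporter, was at 4.30 ± 2.08 and had the largest coefficient of variation of the 6, 48.3%. Slc16a10, an aromatic amino acid transporter, was at 8.82 ± 1.94, and the exchanger light chains Slc7a5 and Slc7a8 were lower, at 0.559 ± 0.158 and 1.02 ± 0.364. Pdxk, the kinase that supplies pyridoxal phosphate, was at 15.9 ± 1.88.

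Of the genes listed for NAD use and nicotinamide handling, 22 of 23 passed the minimum. The list also holds Pnp, a purine nucleoside phosphorylase that can split nicotinamide riboside and release nicotinamide into salvage, and Pnp was its highest gene at 96.6 ± 9.32 CPM per kb. Next was Nnmt, which methylates nicotinamide and so removes it from salvage, at 82.4 ± 15.2. Nnmt was thus above Nampt, which recovers the same nicotinamide, at 15.6 ± 1.81. The first place of Pnp rests on its short annotated exon length, 750 bases. In CPM, Pnp was at 72.5, below Aox3 at 217, Aox1 at 141, Nnmt at 130 and Sirt3 at 77.2 of the same list. Sirt1 was at 1.27 ± 0.225, Parp1 at 6.11 ± 0.363 and Cd38 at 2.25 ± 0.504, each below Nampt. Sirt2 at 13.1 ± 0.695 and Sirt3 at 12.9 ± 0.591 were closer to Nampt. Per kb, Aox3 at 30.9 ± 8.16 and Aox1 at 16.2 ± 1.63 were above it.

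**Figure D3:**
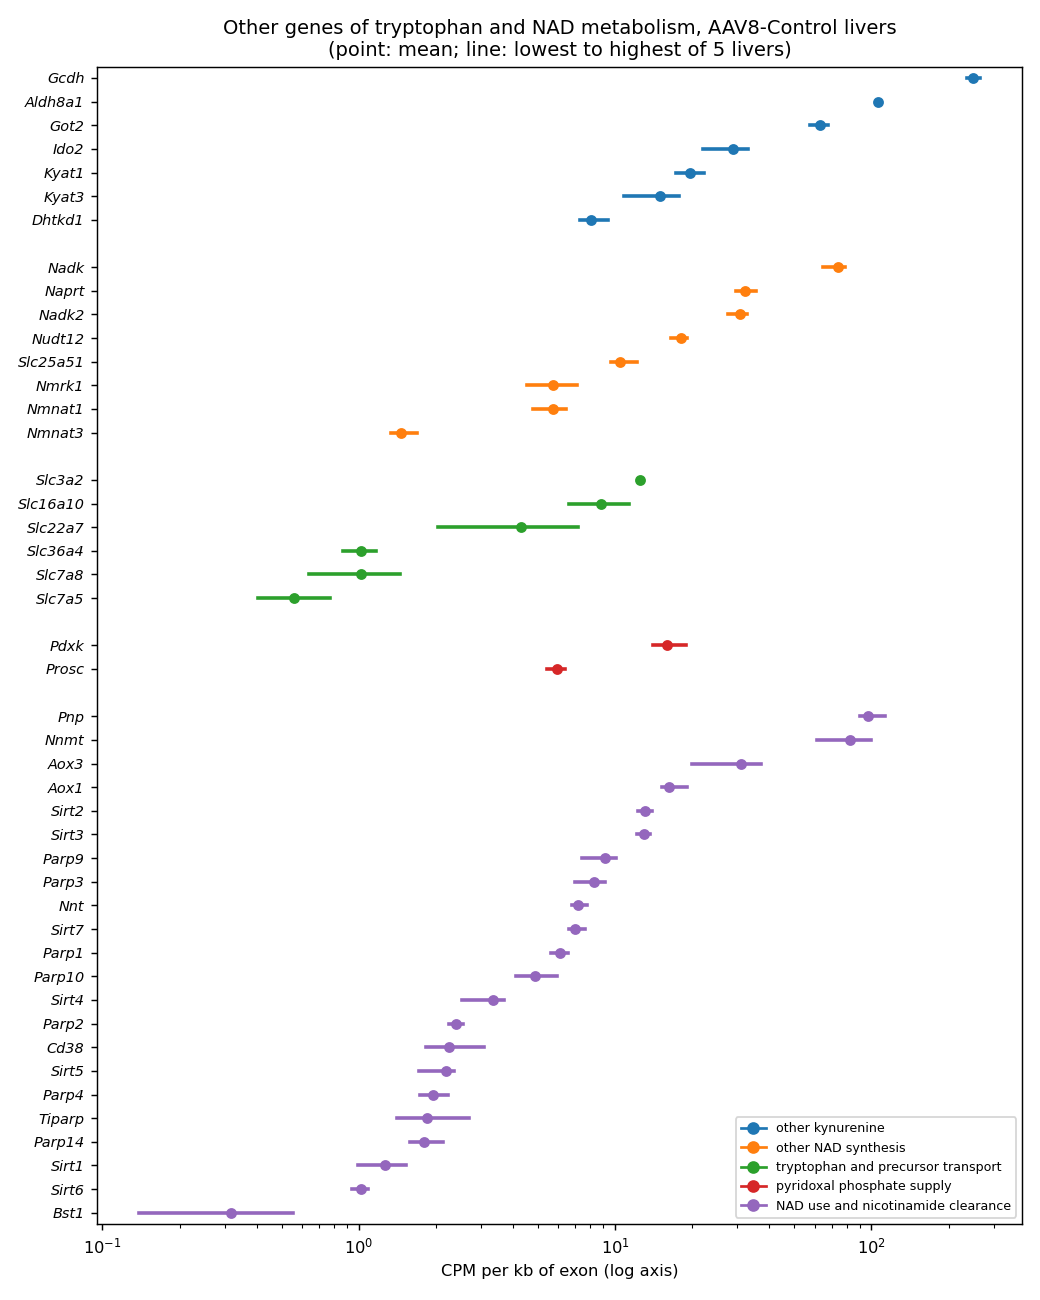
CPM per kb of exon (log axis) of other genes of 5 lists, those shown having passed the minimum, coloured by list; points are means and lines run from the lowest to the highest of the 5 AAV8-Control livers. Gcdh is the highest at 248 and Bst1 the lowest at 0.318.

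Regulators known to act on these genes were present as well. Hnf4a, a nuclear receptor of hepatocyte identity, was at 618 ± 67.1 CPM, and Nr3c1, the glucocorticoid receptor, at 60.6 ± 3.01 CPM. The 6 glucocorticoid targets had a median coefficient of variation of 29.5%. It was 14.6% for the hepatocyte markers and 10.3% for the listed hepatocyte regulators. Markers of other cells were at 30.3% for macrophages, 29.6% for stellate cells and fibroblasts and 28.0% for endothelial cells. The 11 clock genes had a median coefficient of variation of 15.1%. The part of these genes in the spread of the members was not tested.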

How the data were processed

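RNA-seq libraries of 5 AAV8-Control db/db livers were used; the other libraries of the series and the promoter sequences are not reported here. The authors aligned reads with STAR 2.0.4b to Ensembl release 76 (GRCm38.p2 per the labels), assigned unique alignments to genes by featureCounts 1.4.5 and deposited CPM; how the CPM were made is not given in the sources used here. The deposited CPM held 15236 lines for 15126 genes, the 110 repeats being identical. Dividing by the CPM of a single read gave whole reads for 100% of values (tolerance 0.01 reads), which were used for depth and scaling factors. Means, SDs and coefficients of variation were computed in Python with pandas. Levels were divided by the length of the union of a gene's exons in GENCODE M21. That annotation is not the Ensembl release 76 of the alignment, which limits comparisons between genes. Genes with a mean of 1 CPM or more were the reference for ranks. With a single group no test was run, and the planned group tests and count models were not used. No pair of libraries agreed within sampling noise (lowest chi-square per degree of freedom 16.8). Alternatives were median-of-ratios size factors, TMM scaling, each library left out and, chosen after seeing the data, a length of Afmid without bases shared with Gm20708. The members and lists were chosen with earlier results of these data known. Named were the members and genes of the 4 lists on kynurenine steps, NAD synthesis, transport and pyridoxal phosphate; genes of the other lists were named after their values were seen.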

Additional observations from a re-analysis of the deposited data

Results flagged for a closer look

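Among the 10 members and the Acmsd to Qprt ratio, 1 of 11 sets of 5 livers had a library apart from the others by Dixon's ratio, its gap to the nearest library over the whole range, above 0.71; chance alone gives about 1 in 20. Nadsyn1 was highest in AAV8-Control replicate 3, at 24.0 CPM (ratio 0.746). Replicate 3 was still the highest once the libraries were rescaled, but the ratio fell below that limit, to 0.559 with size factors and 0.545 with TMM scaling.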

How the results depend on the processing

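Of 84 values recomputed for the member levels, the Acmsd to Qprt ratio and the count of neighbours in the order of levels whose livers did not overlap, 0 moved by more than the spread between livers, or by 1.5 times for the count. For the levels and the ratio this outcome was nearly fixed beforehand and is no measure of robustness. With 5 livers, leaving out 1 cannot shift a mean by a whole SD. The scaling factors are centred over the 5 livers, so a mean hardly changes, and they cancel in a ratio taken within each library. Scaling by median-of-ratios size factors or by TMM changed no mean level over the 5 livers by more than 0.288%, and leaving out a library changed none by more than 9.02%. In single livers the same scalings, applied there after seeing the data, moved a level by up to 5.25%, most in replicate 1. Under both, the highest liver changed for Haao, to replicate 5, and the lowest for Kmo and Nampt, to replicate 1, so that replicate 3 was lowest for 5 members in place of 6, while replicate 4 stayed highest for 6. The count of neighbours without overlap was 7, also with any library left out, and 6 under both scalings, where Nampt and Acmsd overlapped. With the length of Afmid cut to its unshared exonic bases, an alternative chosen after seeing the data, its level per kb moved from 10.95 to 19.6 and the count stayed at 7 among other neighbours. The Acmsd to Qprt ratio ran from 0.232 to 0.269 with each library left out. No paired analysis was possible because a single group was used and no result comes from a test. A pseudocount, count models and a filter on low values do not enter the member levels and were not run. With 5 livers and no comparison, these values describe these livers only.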
